A study of Saccharomyces cerevisiae with 14 samples.

Results

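The genes that make amino acids, with GCN4, which encodes their common transcriptional activator, were examined in yeast labelled as overexpressing 1 of 4 chaperones. The genes were chosen as enzymes of arginine, histidine, branched-chain amino acid, lysine, aromatic amino acid and threonine synthesis. The rule uses no measured value, but the choice was made with earlier results of these data known. Of the 48 genes listed, 47 were examined, out of 7122 genes in the table, and 1 is not analysed here. They comprise 7 genes of arginine, 7 of histidine, 11 of branched-chain amino acid, 7 of lysine, 9 of aromatic amino acid and 5 of threonine synthesis, and GCN4 itself. All 47 had a mean of at least 5 normalized reads and were therefore tested, as were 6592 genes in total.

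The libraries came from 4 strains of Y258, a haploid laboratory strain derived from S288C that carries mutant alleles of HIS4, LEU2 and URA3. The strains were oe LHS1 (3 libraries), oe SSC1 (3 libraries), oe EGD2 (2 libraries) and oe TCP1 (3 libraries). Each is described as carrying a plasmid-borne copy of the gene in its name. LHS1 encodes a chaperone of the endoplasmic reticulum, SSC1 the mitochondrial Hsp70, EGD2 one part of a complex that meets nascent chains at the ribosome, and TCP1 a subunit of the cytosolic chaperonin. All 4 strains were grown in -URA medium at 30 °C, with 2% glucose and in exponential phase per the labels, while the methods of the study also describe induction in galactose and cells taken after the diauxic shift. The 3 empty vector control libraries are not analysed here, so a strain is compared with the average of the remaining 3 and no value is relative to wild type. The methods describe biological triplicates, but the labels do not say whether a replicate number marks a shared day or culture batch. By chi-square per degree of freedom between counts, oe LHS1 replicates 2 and 3 were the most alike pair of libraries (12.5, against 47.4 for the next pair). Their values to oe LHS1 replicate 1 were 355 and 336. Every test counts them as 2 libraries, and p-values measure the spread between these libraries.

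In budding yeast most amino acid synthesis genes are under general amino acid control. When amino acids run short, uncharged tRNA activates the kinase Gcn2, general translation falls, and the GCN4 transcript, which carries short upstream open reading frames, is translated more. Gcn4 then binds the element TGACTC upstream of its targets. The regulation therefore acts mainly on translation of the GCN4 transcript, which counts of its reads do not measure. Single pathways have their own activators as well, such as Leu3 for leucine synthesis, which senses the intermediate alpha-isopropylmalate, and Lys14 for lysine synthesis, which senses alpha-aminoadipate semialdehyde.

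Upstream sequences are shown because the members differ in which of these elements they carry. Each is 150 bases of the R64 genome (RefSeq), from 250 to 101 bases before the start codon, 5′ to 3′ on the strand of the gene. Capitals mark the element TGACTC, searched on both strands, in 5 genes of 5 pathways. These windows are HIS4 at chrIII:68434-68583 on the minus strand, ARG4 at chrVIII:141503-141652 on the minus strand, LYS12 at chrIX:187733-187882 on the minus strand, TRP4 at chrIV:1184497-1184646 on the plus strand, and HOM2 at chrIV:770107-770256 on the plus strand.
HIS4: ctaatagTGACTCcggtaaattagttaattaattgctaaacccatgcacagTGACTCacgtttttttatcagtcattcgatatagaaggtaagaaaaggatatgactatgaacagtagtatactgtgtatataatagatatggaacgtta
ARG4: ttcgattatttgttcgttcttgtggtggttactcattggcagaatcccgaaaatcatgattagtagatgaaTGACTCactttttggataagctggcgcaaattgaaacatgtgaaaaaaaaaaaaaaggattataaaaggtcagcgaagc
LYS12: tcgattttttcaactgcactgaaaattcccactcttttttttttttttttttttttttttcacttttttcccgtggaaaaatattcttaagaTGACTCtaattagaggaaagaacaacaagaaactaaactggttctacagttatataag
TRP4: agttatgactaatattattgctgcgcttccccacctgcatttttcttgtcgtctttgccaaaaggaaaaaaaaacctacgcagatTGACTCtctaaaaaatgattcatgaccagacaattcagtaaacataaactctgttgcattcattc
HOM2: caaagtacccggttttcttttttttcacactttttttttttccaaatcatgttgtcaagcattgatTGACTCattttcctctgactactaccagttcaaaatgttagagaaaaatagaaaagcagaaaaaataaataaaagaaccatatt

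TGACTC was present within 250 bases before the start codon in 25 of 47 members (53.2%), against 375 of 5990 genes (6.26%) over the genome. It occurred in 6 of 7 histidine, 6 of 11 branched-chain, 4 of 9 aromatic, 3 of 7 arginine, 3 of 7 lysine and 3 of 5 threonine genes, and 4 members held 2 copies. In HIS4, whose product catalyses several steps of histidine synthesis, the copies begin 243 and 199 bases before the start codon. The search took the 6 letters exactly, so variants of the element were not counted.

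A different element, 2 copies of CCGG separated by any 2 bases, which is bound by Leu3, was found in 7 of the 5990 windows (0.117%), and 3 of these 7 genes were members. They are LEU1 and LEU2, for later steps of leucine synthesis, and BAT1, the mitochondrial branched-chain transaminase. In the lines below, capitals mark this element alone. The windows are LEU1 at chrVII:478753-478902 on the minus strand, LEU2 at chrIII:91074-91223 on the plus strand, and BAT1 at chrVIII:517282-517431 on the plus strand. The BAT1 window also holds a copy of TGACTC, which begins 171 bases before its start codon and stands in lower case here.
LEU1: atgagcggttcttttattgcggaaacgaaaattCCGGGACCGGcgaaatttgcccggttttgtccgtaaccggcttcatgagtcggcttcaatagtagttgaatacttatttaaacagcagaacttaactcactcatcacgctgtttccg
LEU2: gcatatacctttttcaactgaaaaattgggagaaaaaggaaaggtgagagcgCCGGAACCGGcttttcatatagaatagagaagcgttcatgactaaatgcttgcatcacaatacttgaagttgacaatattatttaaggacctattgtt
BAT1: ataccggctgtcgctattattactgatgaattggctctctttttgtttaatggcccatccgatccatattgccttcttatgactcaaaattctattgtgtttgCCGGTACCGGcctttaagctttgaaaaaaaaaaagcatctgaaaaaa

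The element TCCNNNGGA, bound by Lys14, was found in 4 members (LYS1, LYS9, LYS12 and LEU9), against 158 of 5990 windows (2.64%). LYS9, which encodes a saccharopine dehydrogenase of the last steps of lysine synthesis, held 2 copies, shown in capitals, in its window at chrXIV:715489-715638 on the minus strand.
LYS9: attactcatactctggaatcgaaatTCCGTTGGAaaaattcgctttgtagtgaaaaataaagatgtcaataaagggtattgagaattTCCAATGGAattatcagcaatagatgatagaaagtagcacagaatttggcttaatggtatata

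Depth was 10127206 to 20286329 reads per library (median 14090055). Checks of the labels bear on the strain comparisons. LHS1 had 23647 to 60337 normalized counts in oe LHS1 against at most 2211 elsewhere, and TCP1 had 22042 to 47002 in oe TCP1 against at most 2577 elsewhere. EGD2 had 24039 and 17746 in oe EGD2, against up to 16374 elsewhere. SSC1 had 30045, 82518 and 11336 in the 3 SSC1-labelled libraries, against 14939.5 to 32390 in the other strains, and thus stood above them in 1 of the 3. URA3, on which selection in -URA medium rests, had 113922 to 367819 over the 11 libraries. The single gene that passed the test in these 3 libraries was HIP1, a histidine permease, with 31570.5, 46307 and 27237 normalized counts against at most 3620.1 in the other strains (log2 difference 4.02, limma adjusted p = 0.000655). They are therefore called SSC1-labelled here, and the counts of calls are given without them too.

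Amino acid synthesis genes had wider ranges over the libraries than the median gene. The ratio of the highest to the lowest library had a median of 3.74 over the members, against 2.62 over all genes tested. It ranged from 1.70 for TRP1, phosphoribosylanthranilate isomerase, to 12.9 for HIS4. The members with the widest range in their pathways were ARG4 (8.62), HIS4, LEU4 (6.58), LYS20 (9.26), TRP4 (7.98) and HOM2 (4.80 as the highest-to-lowest ratio). GCN4 itself ranged 2.13-fold.

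Libraries of one strain differed in their median member level, least of all oe LHS1 replicates 2 and 3 (median deviations of -0.06 and -0.09) and the SSC1-labelled libraries replicates 1 and 2. The SSC1-labelled library replicate 3 was the highest of the 11 for 30 of 47 members (63.8%), against 12.0% of all genes tested, and the median member stood 1.05 above its own mean there on the log2 scale. All 7 arginine genes and 6 of 7 histidine genes were highest in it. The other SSC1-labelled libraries lay at the other end, with median deviations of -0.43 and -0.40. oe TCP1 replicate 3 was highest for a further 13 members (27.7%), against 23.5% of all genes, with a median deviation of 0.53. The lowest library was oe LHS1 replicate 1 for 23 members (48.9%), against 4.73% of all genes, and a replicate 1 library of some strain for 33 members. In the replicate 1 libraries of oe LHS1, labelled oe SSC1, oe EGD2 and oe TCP1, 4.73%, 5.32%, 6.36% and 4.19% of all genes were lowest. Those 4 libraries had median deviations of -0.58 in oe LHS1, -0.43 in the SSC1-labelled library, -0.28 in oe EGD2 and -0.34 in oe TCP1.

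**Figure D1:**
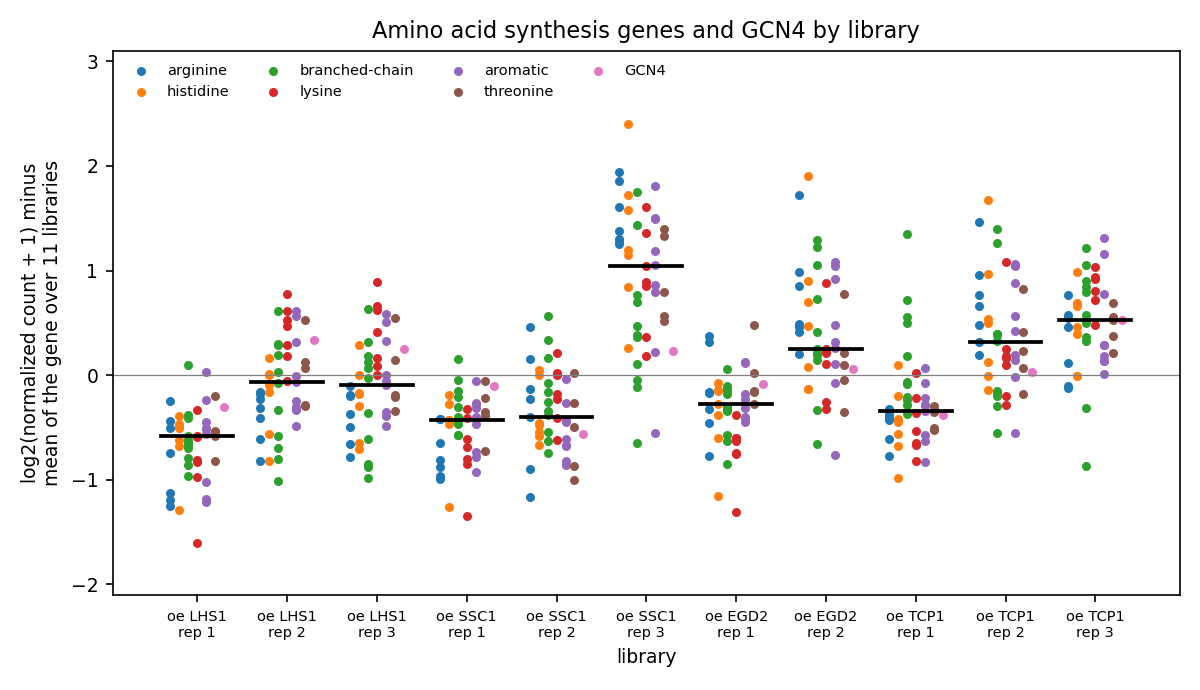
Each point is 1 gene in 1 library, as log2 of the normalized count plus 1 minus the mean of that gene over the 11 libraries, coloured by pathway, and black bars are medians over the 47 genes. The 4 replicate 1 libraries have medians between -0.58 and -0.28, and the SSC1-labelled library replicate 3 has the highest, 1.05.

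Stress and ribosome biogenesis genes varied over these libraries as well. The summed normalized counts of 8 stress genes (HSP12, CTT1, DDR2, ALD3, HSP26, HSP78, HSP104 and STF2) were 173287 to 226233 in the replicate 1 libraries, against 12166 to 326138 in the replicate 2 and 3 libraries. The sums of 8 ribosome biogenesis genes were 24309 to 32881 in the replicate 1 libraries, against 12258 to 83464 in the others. By gene, 7 of 8 stress genes were on the higher side in replicate 1 (median log2 difference 1.54, none at an unadjusted limma p under 0.05), as were 4 of 8 ribosome biogenesis genes (median 0.01). Of all genes tested, 52.1% were on the lower side. The median member was high both in the SSC1-labelled library replicate 3, where the ribosome biogenesis sum was 15919, and in oe TCP1 replicate 3, where it was 83464. Different genes were high in them, as 30 members were highest in the former and 13 in the latter. ARG4 had 31816 and 7636 normalized counts in this order and BAT2 5609 and 1135, while BAT1 had 6128 and 13080.5. The part of growth state in the differences described here was not tested, and in bulk RNA fewer cells that express a gene cannot be told apart from less RNA per cell.

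No member passed the test in any strain (limma, a strain against the average of the remaining 3, Benjamini-Hochberg adjusted p under 0.05 over all genes). The share of all genes called was 0.0152% for oe LHS1, 0.0152% for the SSC1-labelled libraries, 0% for oe EGD2 and 0.0152% for oe TCP1, and 0.0455% by the F test among the 4 strains. edgeR on the recovered reads called no member either, against 0.0152%, 0.0152%, 0% and 0.0152% of all genes in the same strain order and 0.0455% by the F test. DESeq2 called none as well, against 0.0152%, 0.0609%, 0.0305% and 0.0457% of all genes, and 0.0457% by the F test. Without the SSC1-labelled libraries, with each strain against the mean of the remaining 2, limma called no member either, against 0.0152% of all genes in oe LHS1, 0% in oe EGD2, 0.0152% in oe TCP1 and 0.0303% by the F test. At an unadjusted limma p under 0.05 there were 1 member in oe LHS1, 0 in the SSC1-labelled libraries, 1 in oe EGD2 and 1 in oe TCP1, against 3.69%, 0.895%, 2.94% and 0.364% of all genes tested. edgeR gave 2, 0, 1 and 1 members and DESeq2 9, 0, 2 and 4 in the same order, against 5.17%, 1.82%, 3.52% and 0.485% of all genes by edgeR and 7.59%, 2.22%, 7.69% and 1.14% by DESeq2. By the F test 1 member had an unadjusted p under 0.05 with each of limma, edgeR and DESeq2, against 0.561%, 2.08% and 4.31% of all genes.

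The member with the smallest p in a comparison of strains was LEU2, isopropylmalate dehydrogenase, whose chromosomal copy is mutated in Y258. LEU2 (YCL018W, chrIII:91324-92418) had 2084, 1705 and 1537 normalized counts in oe LHS1, against 2683, 2315 and 2558 in the SSC1-labelled libraries, 2886 and 5754 in oe EGD2 and 3905, 3618 and 3569.7 in oe TCP1. The 3 oe LHS1 libraries lay below all others. The log2 difference of oe LHS1 from the other strains was -0.93 ± 0.23 (SE), with a limma p of 0.00201 before and 0.677 after adjustment. oe EGD2 differed by 0.68 ± 0.26 in the same gene (limma unadjusted p = 0.0247, adjusted p = 0.707). LEU1, isopropylmalate isomerase, was the member with an unadjusted p under 0.05 in oe TCP1, at 0.91 ± 0.41 on the log2 scale (limma unadjusted p = 0.0496, adjusted p = 0.99983). LEU1 and LEU2 are the genes, with BAT1, that carry the Leu3 element shown above.

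By direction alone, 36 of 47 members were lower in oe LHS1 than in the other strains, with a median log2 difference of -0.34, while 48.8% of all genes tested were lower and their median was 0.01. The 7 arginine genes were all on the lower side there (median -0.71), and 4 of 7 lysine genes were on the higher side (median 0.07). The median over the members was -0.14 without oe LHS1 replicate 1, -0.19 without the SSC1-labelled library replicate 3 and -0.23 without oe EGD2 replicate 2. In oe TCP1, 46 of 47 members were on the higher side, with a median of 0.21, while 49.7% of all genes tested were lower and their median was 0.00147. The median over the members was 0.47 without oe TCP1 replicate 1 and 0.09 without oe TCP1 replicate 3. Of the other libraries, leaving out the SSC1-labelled libraries replicate 1 (0.13), 2 (0.14) or 3 (0.36), oe EGD2 replicate 1 (0.12) or oe TCP1 replicate 2 (0.13) also moved it by over 1.5 times. The median was 0.02 in the SSC1-labelled libraries, but -0.39 without replicate 3 and 0.30 without replicate 1, and it was -0.01 in oe EGD2, but -0.25 without replicate 2 and 0.26 without replicate 1. The strains share their comparison libraries, so these medians are not independent of each other. The members also vary together, with a median Pearson's r of 0.64 over all pairs. Counts of members on a side, here and in the following, are therefore not counts of independent genes.

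GCN4 (YEL009C, chrV:138918-139763) was among the most abundant members, with normalized counts of 10048, 11514, 11739 and 9509 in the replicate 1 libraries, against 15649, 8421, 12955 and 12631 in the replicate 2 libraries and 14765, 14592 and 17917 in the replicate 3 libraries. Within replicate numbers the values are in the order oe LHS1, labelled oe SSC1, oe EGD2 and oe TCP1, and oe EGD2 has no replicate 3, here and in the following. The strain means were 13488 ± 3011 in oe LHS1, 11509 ± 3086 in the SSC1-labelled libraries, 12347 ± 860.3 in oe EGD2 and 13352 ± 4250.3 in oe TCP1 (SD, n = 3, 3, 2 and 3). The strains overlapped throughout. The log2 difference from the other strains was 0.13 ± 0.31 (SE) in oe LHS1, -0.19 ± 0.31 in the SSC1-labelled libraries, -0.01 ± 0.36 in oe EGD2 and 0.08 ± 0.31 in oe TCP1 (limma adjusted p = 0.878, 0.99991, 0.996 and 0.99983). Two-sided exact permutation tests gave p = 0.588, 0.406, 1 and 0.745 in the same order, where the smallest p the design allows is 0.00606, or 0.0182 for oe EGD2.

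The contrast by replicate number, which the labels share across strains, gave more members at an unadjusted p under 0.05 than any contrast between strains. It was fitted as replicate 1 against the mean of replicates 2 and 3 with strain in the model. Of 47 members, 46 were on the lower side in replicate 1, with a median log2 difference of -0.72, against 52.1% of all genes and a median of -0.02. None passed the test after adjustment by limma, which called 0% of all genes tested, or by edgeR, while DESeq2 on the recovered reads called 16 members, against 7.18% of all genes. They included all 7 lysine genes, ARG3, HIS4, HIS7, ILV2, ILV6, ARO1, ARO4 and THR4. At an unadjusted limma p under 0.05, 31 of 47 members were lower and none higher, against 7.96% of all genes lower and 8.39% higher. edgeR gave 30 members and DESeq2 33 at an unadjusted p under 0.05, against 16.4% and 20.2% of all genes in either direction. In 12 of 47 members the 4 replicate 1 libraries lay below all 7 others, against 3.38% of all genes, and in no member did they lie above, against 2.44%. Replicate 1 was the lowest library of its strain in all 4 strains for 19 members, against 7.19% of all genes, and the highest in all 4 for none, against 5.49%.

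The count at an unadjusted p depended on single libraries. Against 16.4% of all genes in either direction with all libraries, the share of all genes also fell in these fits. The count was 18 (9.25% of all genes) without oe LHS1 replicate 1, 17 (10.7%) without the SSC1-labelled library replicate 1, 20 (10.9%) without either oe EGD2 library and 16 (10.9%) without oe TCP1 replicate 1. Without the 3 SSC1-labelled libraries it was 27, against 15% of all genes, with a median log2 difference of -0.61. With replicates 1 and 2 alone it was 15, against 9.81% of all genes, with a median of -0.49. The direction of the median was the same in each of these fits.

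**Figure D2:**
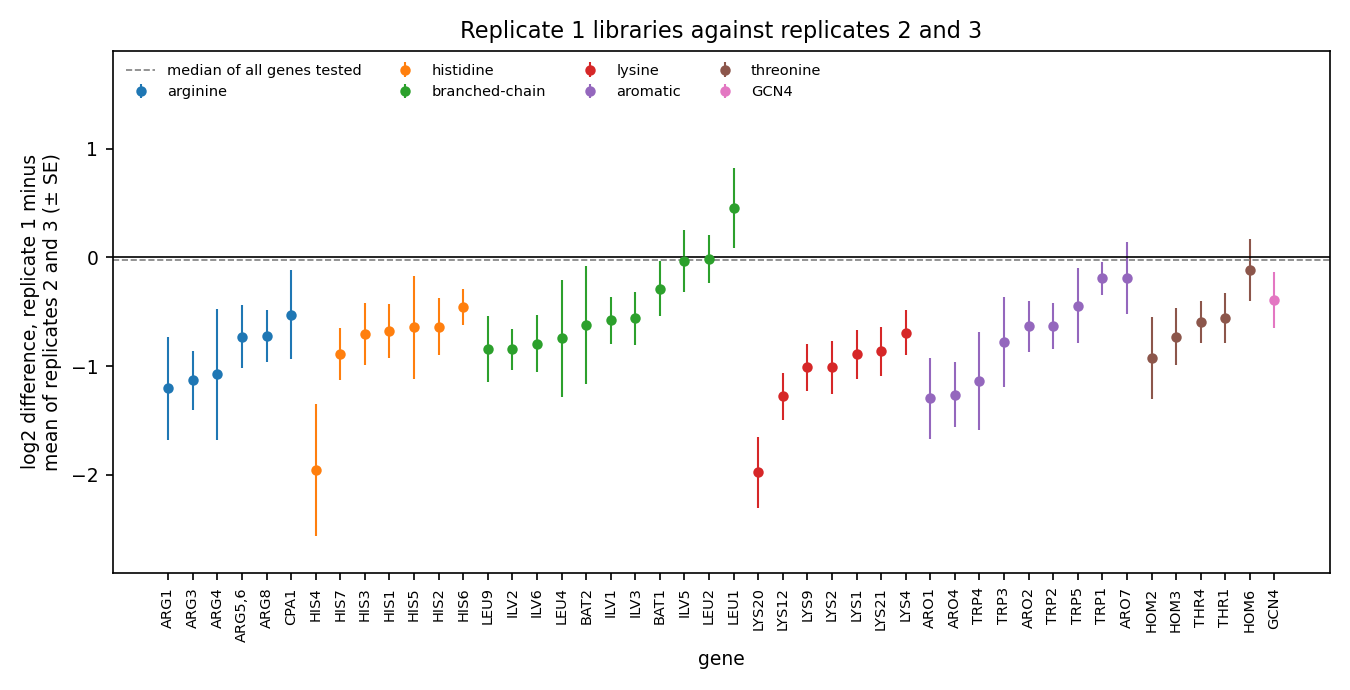
Each point is the fitted log2 difference of 1 gene, for 46 of the 47 genes, between replicate 1 and the mean of replicates 2 and 3 with strain in the model, bars are ± SE, and the dashed line is the median of all 6592 genes tested (-0.02). LYS20 (-1.98) and HIS4 (-1.95) lie farthest below 0, and LEU1 (0.45) is the gene above it.

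In lysine synthesis all 7 genes were lower in replicate 1 at an unadjusted p under 0.05, with a median log2 difference of -1.01. LYS20 (YDL182W, chrIV:133437-134723), a homocitrate synthase at the entry to the pathway, had normalized counts of 1447, 1731, 1772 and 2769.8 in the replicate 1 libraries, against 6071, 3743, 8095 and 9314 in the replicate 2 libraries and 4925, 13394 and 8321 in the replicate 3 libraries. Every replicate 1 library lay below every other library. The log2 difference was -1.98 ± 0.33 (SE), limma adjusted p = 0.105, the smallest adjusted p among the members. LYS12 (YIL094C, chrIX:186517-187632), homoisocitrate dehydrogenase, had 2312, 2256, 2685 and 2305 in the replicate 1 libraries, against 6231, 3059, 4838 and 4607 in the replicate 2 libraries and 6259, 7527 and 7749.7 in the replicate 3 libraries (-1.28 ± 0.21 (SE), limma adjusted p = 0.112). Its groups did not overlap either. LYS9, LYS2 (alpha-aminoadipate reductase), LYS1, LYS21 and LYS4 (homoaconitase) had log2 differences between -1.01 and -0.69. LYS12 is named here after its values were seen.

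Arginine synthesis had the lowest median, -1.07, with all 7 genes on the lower side and 5 at an unadjusted p under 0.05. ARG4 (YHR018C, chrVIII:140011-141402), argininosuccinate lyase, had normalized counts of 3806, 4716, 10313 and 5417 in the replicate 1 libraries, against 4690.1, 3691, 27399.6 and 22879.7 in the replicate 2 libraries and 4837, 31816 and 7636 in the replicate 3 libraries. The SSC1-labelled library replicate 3, oe EGD2 replicate 2 and oe TCP1 replicate 2 were the highest, and the groups overlapped. The log2 difference was -1.07 ± 0.60 (SE), limma adjusted p = 0.421, and it was -0.56 without the SSC1-labelled library replicate 3. ARG1, argininosuccinate synthetase, had the highest level per kilobase of coding length of all 47 members, 16558 normalized counts on average over the 11 libraries, and a log2 difference of -1.21 ± 0.48 (SE), limma adjusted p = 0.27. ARG3, ornithine carbamoyltransferase, differed by -1.13, and its replicate 1 libraries lay below all others. CPA1 differed by -0.53 ± 0.41 (SE) and its groups overlapped.

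In histidine synthesis 6 of 7 genes were lower at an unadjusted p under 0.05 (median -0.68). HIS4 (YCL030C, chrIII:65934-68333) had normalized counts of 1545, 1576, 1690 and 1909 in the replicate 1 libraries, against 2543, 2582, 14052 and 12054 in the replicate 2 libraries and 2405, 19866 and 5171 in the replicate 3 libraries. The replicate 1 libraries were the lowest 4 of the 11 and differed little among themselves, while the other 7 spread over a wide range with the SSC1-labelled library replicate 3, oe EGD2 replicate 2 and oe TCP1 replicate 2 at the top. The log2 difference was -1.95 ± 0.61 (SE), limma adjusted p = 0.195. HIS1 (the first enzyme, ATP phosphoribosyltransferase), HIS2, HIS3, HIS5, HIS6 and HIS7 had differences from -0.89 in HIS7 to -0.46 in HIS6. HIS5, the aminotransferase, was the one histidine gene that did not reach an unadjusted p under 0.05.

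Of the 9 genes of aromatic amino acid synthesis, 5 were lower at an unadjusted p under 0.05 (median -0.63). TRP4 (YDR354W, chrIV:1184747-1185889), anthranilate phosphoribosyltransferase, had normalized counts of 573, 758, 984 and 1120.3 in the replicate 1 libraries, against 1036, 719, 2693 and 2689.6 in the replicate 2 libraries and 997, 4576 and 1592 in the replicate 3 libraries (-1.13 ± 0.45 (SE), limma adjusted p = 0.272, and -0.72 without the SSC1-labelled library replicate 3). ARO4 (YBR249C, chrII:716882-717994), a DAHP synthase at the entry to the shikimate pathway, had 3014, 4179, 5285 and 4519.7 in the replicate 1 libraries, against 10675, 4404, 7521 and 7974 in the replicate 2 libraries and 9922, 14497 and 15532 in the replicate 3 libraries (-1.26 ± 0.30 (SE), limma adjusted p = 0.152). In ARO4 the replicate 1 library was the lowest in each strain, but oe EGD2 and oe TCP1 replicate 1 lay above the SSC1-labelled library replicate 2. ARO7, chorismate mutase, and TRP1 had the smallest differences of the pathway (-0.19 each). ARO7 also had another profile, with 2366 in oe TCP1 replicate 3 and 562 to 1429 in the other libraries.

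In threonine synthesis 4 of 5 genes were lower at an unadjusted p under 0.05 (median -0.59). HOM2 (YDR158W, chrIV:770357-771454), aspartate semialdehyde dehydrogenase, had normalized counts of 3486, 3744, 6244 and 4347 in the replicate 1 libraries, against 5039, 3387, 10588 and 10901 in the replicate 2 libraries and 4872, 16263 and 8878 in the replicate 3 libraries (-0.93 ± 0.38 (SE), limma adjusted p = 0.279, and -0.61 without the SSC1-labelled library replicate 3). The highest were again the SSC1-labelled library replicate 3 and replicate 2 of oe TCP1 and oe EGD2, and the groups overlapped. HOM6, homoserine dehydrogenase, differed by -0.12 ± 0.29 (SE), and HOM3, THR4 and THR1 by -0.73, -0.59 and -0.56.

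**Figure D3:**
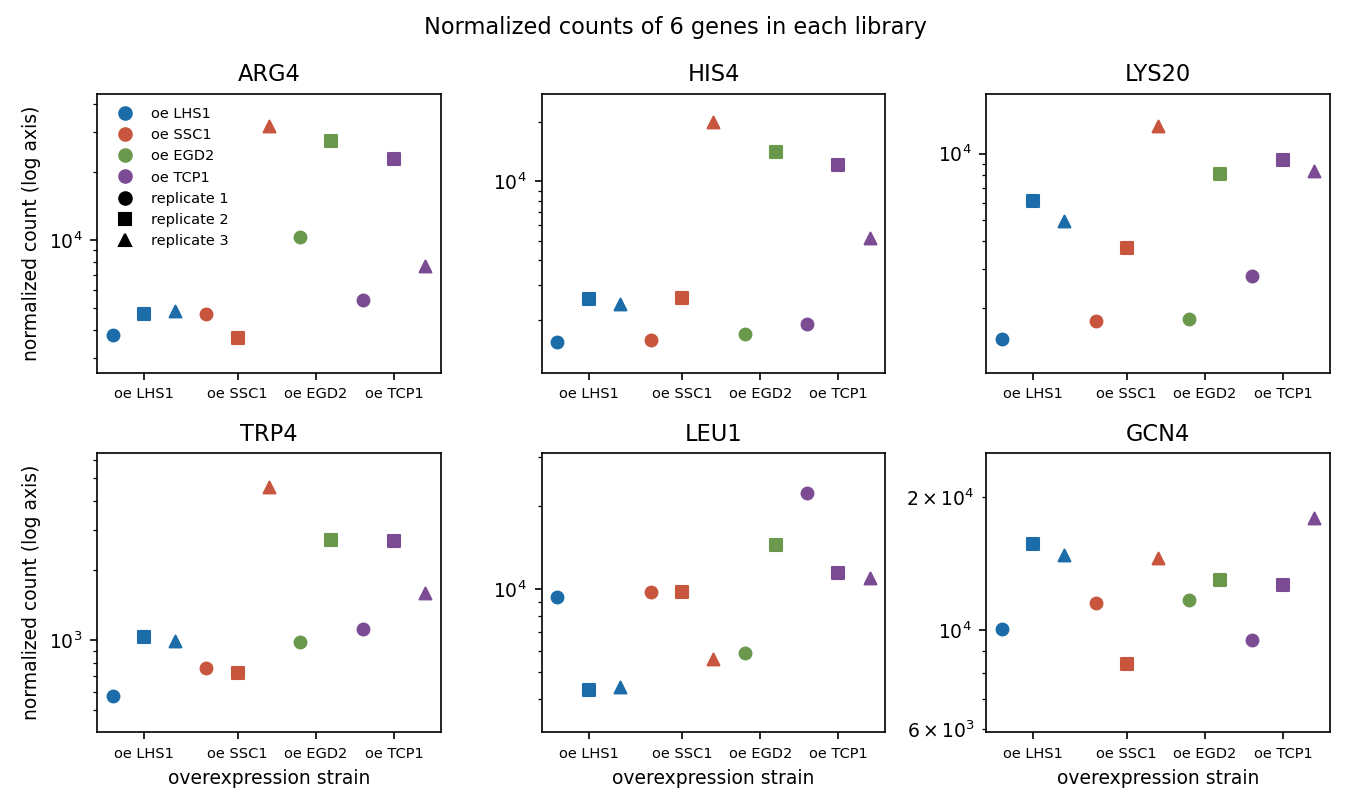
Normalized counts of 6 genes (log axes) in each of the 11 libraries, coloured by strain, with circles for replicate 1, squares for replicate 2 and triangles for replicate 3. Circles are at the bottom in HIS4 and LYS20, while LEU1 has its highest value, 22229, in oe TCP1 replicate 1.

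Branched-chain amino acid synthesis had the smallest share of such genes, with 4 of 11 lower at an unadjusted p under 0.05 (median -0.58). ILV2, the catalytic subunit of acetolactate synthase, was at -0.84 (log2 difference) and its groups did not overlap. LEU1 (YGL009C, chrVII:476313-478652) was the exception among the 47, with normalized counts of 9357, 9760, 5876 and 22229 in the replicate 1 libraries, against 4335, 9802, 14435 and 11459 in the replicate 2 libraries and 4428, 5593 and 10996 in the replicate 3 libraries. In oe LHS1 and oe TCP1 the replicate 1 library was the highest of its strain, and in oe EGD2 it was the lower one. The log2 difference was 0.45 ± 0.36 (SE), limma adjusted p = 0.591. It was 0.22 without oe LHS1 replicate 1, 0.26 without oe TCP1 replicate 1 and 0.83 without either oe EGD2 library. LEU2 (-0.02), ILV5, ketol-acid reductoisomerase (-0.03), and BAT1 (-0.29) were closest to 0 among the others of the pathway. The 3 members with the Leu3 element are all among the 4 with the least negative differences in their pathway, and the other of these, ILV5, has no match. Their median was -0.02, the value of LEU2, against -0.58 for the 11 genes of the pathway and -0.73 for the members of all pathways without a match. In LEU1 and LEU2 replicate 1 was higher than the other replicates in oe LHS1 and lower in oe EGD2. Their differences therefore average over opposite directions. An exact match within 250 bases was required, so variants of the element were not counted. Whether the element goes with the difference was not tested. Members with and without TGACTC had medians of -0.73 and -0.66. LEU1 is described in full after its values were seen.

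Isoenzymes of one step did not keep a fixed ratio. LEU4 (YNL104C, chrXIV:424895-426754) and LEU9 (YOR108W, chrXV:523027-524841) encode the alpha-isopropylmalate synthases of leucine synthesis. LEU4 had normalized counts of 3988, 5242, 6222 and 8833 in the replicate 1 libraries, against 4451, 5025, 19018 and 18633 in the replicate 2 libraries and 4222, 26231 and 6277 in the replicate 3 libraries. LEU9 had 1235, 1490.3, 1114 and 1698 in the replicate 1 libraries, against 3072, 2969, 1273 and 1369 in the replicate 2 libraries and 3101, 2621 and 4667 in the replicate 3 libraries. The LEU4 to LEU9 ratio of counts was 3.23, 3.52, 5.59 and 5.2 in the replicate 1 libraries, against 1.45, 1.69, 14.9 and 13.6 in the replicate 2 libraries and 1.36, 10 and 1.34 in the replicate 3 libraries. It was largest in the SSC1-labelled library replicate 3, oe EGD2 replicate 2 and oe TCP1 replicate 2, and below 2 in oe TCP1 replicate 3, replicates 2 and 3 of oe LHS1 and the SSC1-labelled library replicate 2. The coding sequences share no identical window of 50 bases, the read length, so no whole read matches both exactly.

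BAT1 (YHR208W, chrVIII:517532-518713), the mitochondrial transaminase, and BAT2 (YJR148W, chrX:705744-706874), the cytosolic one, had a ratio that ran the other way. BAT1 had normalized counts of 3964, 5473, 5106 and 9304 in the replicate 1 libraries, against 5972, 4858, 6984 and 5688 in the replicate 2 libraries and 6634, 6128 and 13080.5 in the replicate 3 libraries. BAT2 had 1345, 1554, 1639 and 1949 in the replicate 1 libraries, against 1386, 1422, 4859.8 and 5474 in the replicate 2 libraries and 1358, 5609 and 1135 in the replicate 3 libraries. The BAT1 to BAT2 ratio of counts was 2.95, 3.52, 3.11 and 4.77 in the replicate 1 libraries, against 4.31, 3.42, 1.44 and 1.04 in the replicate 2 libraries and 4.88, 1.09 and 11.5 in the replicate 3 libraries. The ratio was closest to 1 in the 3 libraries with the largest LEU4 to LEU9 ratios and farthest apart in oe TCP1 replicate 3. These genes share no window of 50 bases either.

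LYS20 and LYS21 (YDL131W, chrIV:227393-228715) encode the homocitrate synthases. LYS21 had normalized counts of 2306, 2606, 2655 and 2202 in the replicate 1 libraries, against 4212, 2243, 3710.1 and 3874 in the replicate 2 libraries and 4605, 6237 and 6031 in the replicate 3 libraries. The LYS20 to LYS21 ratio of counts was 0.627, 0.664, 0.667 and 1.26 in the replicate 1 libraries, against 1.44, 1.67, 2.18 and 2.4 in the replicate 2 libraries and 1.07, 2.15 and 1.38 in the replicate 3 libraries. It was below 1 in the replicate 1 libraries other than that of oe TCP1, and above 1 elsewhere. Of 1238 windows of 50 bases in LYS20, 468 (37.8%) occur in LYS21 too, and the authors kept reads of a minimum alignment quality, so the counts of both genes may lack or share reads and their ratio is uncertain.

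**Figure D4:**
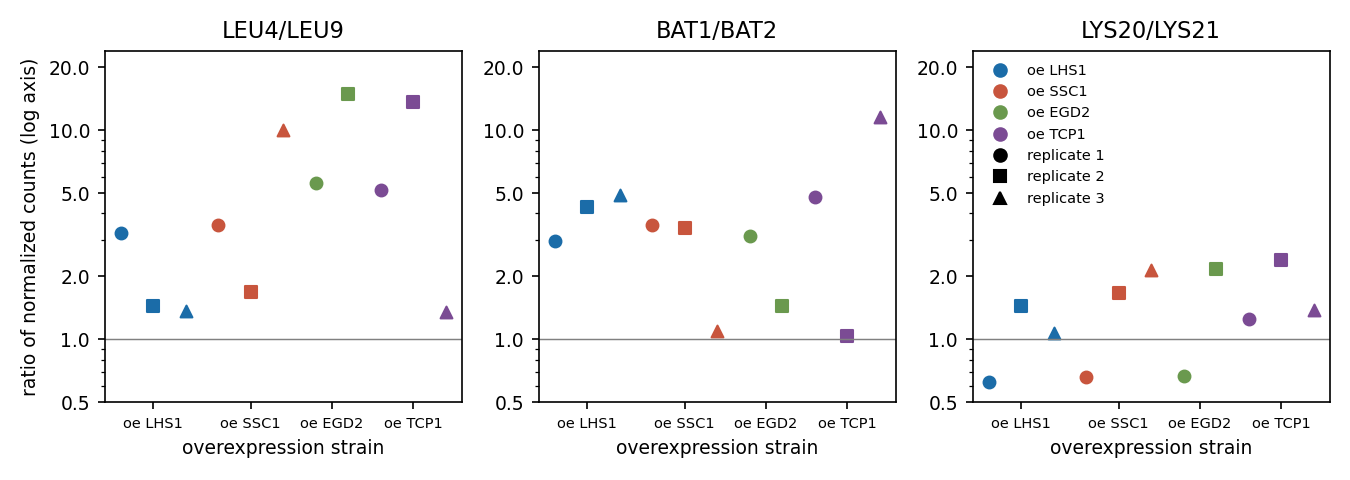
Ratios of normalized counts (log axes) of 3 pairs of isoenzymes in each library, coloured by strain and marked by replicate number, with a line at 1. LEU4/LEU9 runs from 1.34 to 14.9, BAT1/BAT2 from 1.04 to 11.5 and LYS20/LYS21 from 0.627 to 2.40.

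Levels per kilobase of coding length, as means over the 11 libraries, also differed between steps of a pathway. GCN4 had 15016 normalized counts per kilobase and came after ARG1, and ILV5 had 12529. The lowest was HIS6, an isomerase of histidine synthesis, with 626, while HIS1 had 4089 as the highest of its pathway. In lysine synthesis the per-kilobase level was 1042 for LYS2 and 4350 for LYS20, and in aromatic synthesis 827 for TRP1 and 7149 for ARO4. THR1, homoserine kinase, had 2598 and HOM2 6437, and LEU9 had 1233 in the pathway of ILV5.

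The level of the GCN4 transcript correlated positively with that of most members over the 11 libraries. Pearson's r with GCN4, on log2 values, was positive for 44 of 46 members, with a median of 0.54, against 49.0% of the 6591 other genes tested and a median of -0.01. After each strain was centred on its mean 44 were positive as well, against 49.5% of all genes. For 6 members both r and Spearman's rho had a permutation p under 0.05 after adjustment over all 6591 genes, as had 4.05% of all genes. Before adjustment these were 15 members, against 18.3% of all genes. In the 6, r stayed over 0.5 without the SSC1-labelled library replicate 2 and oe TCP1 replicate 3, which were farthest from the median of GCN4. ARO2, chorismate synthase, had the highest, r = 0.92 and rho = 0.91 (permutation p = 3e-05 and 0.00022, adjusted p = 0.00638 and 0.0181), and r = 0.86 without these libraries. LYS21 followed with r = 0.91 and rho = 0.92 (permutation p = 6e-05 and 0.00011, adjusted p = 0.00746 and 0.0154), and r = 0.90 without them. The others were THR1 (r = 0.89, rho = 0.87), ARO4 (r = 0.89, rho = 0.89), LYS12 (r = 0.86, rho = 0.85) and THR4 (r = 0.79, rho = 0.85), with adjusted permutation p-values of 0.00902 to 0.0456 for r and 0.0243 to 0.0478 for rho. Without the same libraries their r was 0.87, 0.90, 0.92 and 0.78 in this order.

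Within the 7 libraries of replicates 2 and 3, r with GCN4 was 0.91 for ARO2, 0.91 for LYS21 and 0.71 for THR4, the lowest of the 6, and it was positive for 42 of 46 members with a median of 0.37, against 45.3% of all genes and a median of -0.09. Replicate 1 has 4 libraries, too few for a value. The genes with the widest ranges followed GCN4 less closely, with r = 0.42 and rho = 0.45 (permutation p = 0.197 and 0.165, adjusted p = 0.42 and 0.44) for HIS4, r = 0.35 for ARG4 and r = 0.16 for LEU4. LEU1 had a negative value, r = -0.46 and rho = -0.40 (permutation p = 0.152 and 0.224, adjusted p = 0.366 and 0.511), and LEU2 was near 0 (r = -0.07). Libraries of one strain and of one replicate number are not independent, and all libraries share 1 normalization. The permutations treated the 11 libraries as exchangeable, so these p-values may be too small and describe these libraries only.

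**Figure D5:**
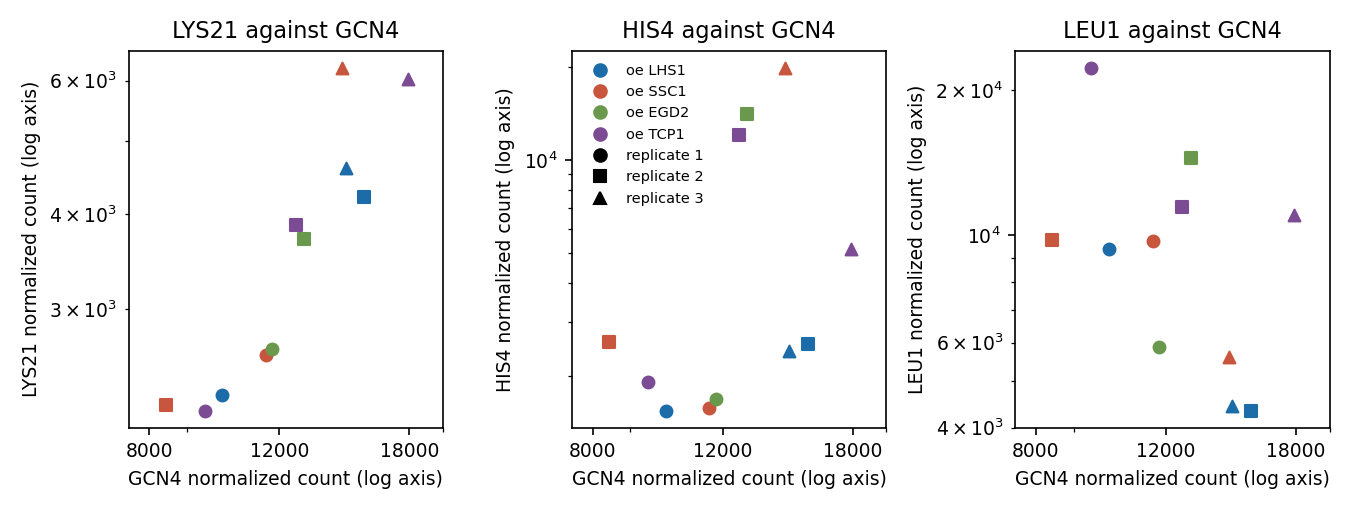
Normalized counts of LYS21, HIS4 and LEU1 against those of GCN4 (log axes), 1 point per library, coloured by strain and marked by replicate number. LYS21 increases with GCN4 (r = 0.91), HIS4 spreads widely at intermediate GCN4 (r = 0.42), and LEU1 has r = -0.46.

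Members of a pathway varied together to different extents. As a description over the 11 libraries, the median Pearson's r between members of a pathway was 0.82 in arginine, 0.80 in lysine, 0.71 in histidine, 0.69 in aromatic, 0.66 in threonine and 0.40 in branched-chain synthesis. With the members outside the pathway, the median was 0.70, 0.66, 0.71, 0.67, 0.66 and 0.47 in the same order. These values were close to those within the pathway in histidine, aromatic and threonine synthesis. In branched-chain synthesis the median within the pathway was the lower one. Over all 1081 pairs of members the median r was 0.64, and 91.2% of pairs were positive. The same share over pairs of all genes was not computed. The genes outside the list whose profile was most like the median of the members were BUD16 (r = 0.98), ARP6 (r = 0.96), SEC2, YMC1 and YDR341C (r = 0.95 each).

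Other genes of these pathways, of other amino acids and of their regulation were examined as lists, of which no gene passed the limma test in any strain or by replicate number. Of 10 further genes of the same pathways, 9 were on the lower side in replicate 1 (median -0.58), 6 of them at an unadjusted limma p under 0.05. Over all genes tested 52.1% were on the lower side (median -0.02), and 7.96% were lower at that unadjusted p. ARG7 and ARG2 of arginine synthesis had log2 differences of -1.09 and -0.95, and the aromatic aminotransferase ARO8 had -0.87. ARO9, the aromatic aminotransferase of amino acid breakdown, went the other way, with normalized counts of 1978, 1496, 1745 and 2262 in the replicate 1 libraries, against 1521, 1750.1, 843 and 1150.1 in the replicate 2 libraries and 1430.3, 1121 and 693 in the replicate 3 libraries (log2 difference 0.75, limma unadjusted p = 0.0161, adjusted p = 0.203). Of 10 genes for proline, asparagine, cysteine and serine synthesis, 9 were on the lower side (median -0.33), with PRO2 at -0.88 and ASN1 at -0.81, and CYS3 of cysteine synthesis on the higher side at 0.76. SER3, which makes serine from a glycolytic intermediate, had the widest range of these lists, 22.3-fold, with normalized counts of 3845, 6369, 3914 and 3846 in the replicate 1 libraries, against 1686, 2542, 27632 and 15342 in the replicate 2 libraries and 1579, 35154 and 2559 in the replicate 3 libraries. It was highest in the same 3 libraries as ARG4 and HIS4.

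Among 15 regulators, 12 were on the lower side in replicate 1 (median -0.28), against 52.1% of all genes and a median of -0.02. Of the 15, 4 were lower at an unadjusted limma p under 0.05, against 7.96% of all genes. LEU3 itself had 1066, 988, 1027 and 1116 in the replicate 1 libraries, against 1422, 1565, 1842 and 1882 in the replicate 2 libraries and 1695, 2101 and 1837 in the replicate 3 libraries (log2 difference -0.76, limma unadjusted p = 0.000813, adjusted p = 0.127). LYS14 had 1215, 1081, 1137 and 1168 in the replicate 1 libraries, against 1593, 2127, 2394 and 2295 in the replicate 2 libraries and 1742, 2939.5 and 1452 in the replicate 3 libraries (log2 difference -0.82, adjusted p = 0.156 by limma). In both genes every replicate 1 library lay below the other libraries of its strain. BAS1, an activator shared with purine synthesis, had -0.88, and ARG81, which senses arginine, -0.73. ARG82 went the other way, with a log2 difference of 0.58 (limma unadjusted p = 0.0085, adjusted p = 0.178). It was the 1 regulator on the higher side at an unadjusted p under 0.05. GCN2, the kinase upstream of GCN4, ranged 1.81-fold over the libraries.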

How the data were processed

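RNASeq was available for 11 libraries of 4 Saccharomyces cerevisiae strains labelled as overexpressing a chaperone. The deposited values are signal per gene, which the authors made from unpaired 50-base reads, aligned with STAR 2.3.0e to the sacCer3 genome, by counting with HTSeq 0.6.0 (minimum alignment quality 10, strand not used), removal of outlier replicates by principal component analysis, and division by DESeq2 size factors. Since strand was not used, reads of overlapping antisense transcripts cannot be told apart. Whole reads were recovered from every library, with 100% of values within 0.01 of a whole number.

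Values were transformed to log2(normalized count + 1), so that fold changes are on this scale, and 6592 genes with a mean of at least 5 were tested with limma 3.58.1 (mean-variance trend) in R 4.3.3, with p-values adjusted by Benjamini-Hochberg over all of them (threshold 0.05). The study's methods name DESeq2 after removal of outlier replicates, and its design formula is not given in the sources used here. The strain fit had strain alone, and the replicate fit had strain and replicate number. Alternatives were a pseudocount of 8, no filter or a mean of at least 50, edgeR 4.0.16 and DESeq2 1.42.0 on the recovered reads, quantile normalization, a replicate block, no strain term, and each library left out. Fits without the SSC1-labelled libraries and with replicates 1 and 2 alone were chosen after seeing the data. Correlations used 100000 permutations, with p-values adjusted over 6591 genes. The tests were tested on simulated data. Figures were drawn with matplotlib 3.10.9 in Python 3.11.15.

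Coordinates and upstream sequences are from RefSeq's R64 assembly, the same as sacCer3, to which 6045 genes matched by systematic name. Values in every library are given for GCN4, the member of widest range in each pathway, isoenzyme pairs, LEU2 and HIS4, and others are named as highest or lowest in a pathway, or as noted. The members and lists were chosen with earlier results of these data known. For 1 listed gene nothing is reported here, and 1 other is counted among the members without its own values.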

Additional observations from a re-analysis of the deposited data

Results flagged for a closer look

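Values in the 4 replicate 1 libraries and in the 7 libraries of replicates 2 and 3 were screened for a library far from the others of its group, over 40 groups of values, of which chance alone gives about 1 in 20. In 4 of them a library stood apart, by a gap larger than Dixon's limit relative to the range of the group. BAT1 had 13080.5 normalized counts in oe TCP1 replicate 3, against 6984 in the next library (gap 0.741 of the range). The BAT1 to BAT2 ratio was 11.5 in the same library, against 4.88 in the next (0.633 of the range). LYS12 had 2685 in oe EGD2 replicate 1, against 2312 in the next of the replicate 1 libraries (0.869 of the range). The LYS20 to LYS21 ratio was 1.26 in oe TCP1 replicate 1, against 0.667 in the next (0.936 of the range).

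In LEU1 and LEU2, replicate 1 stood on opposite sides of the other replicates in different strains. LEU1 was higher in replicate 1 by 1.09 on the log2 scale in oe LHS1 and at -1.30 in oe EGD2, a gap of 2.39. LEU2 was higher by 0.36 in oe LHS1 and at -0.995 in oe EGD2, a gap of 1.36. These differences were not tested, and oe EGD2 has 1 library on each side.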

How the results depend on the processing

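No member was called between strains under the alternative pseudocount, filters, count tools and normalization, with the replicate block, without any single library, without the SSC1-labelled libraries or with replicates 1 and 2 alone. Replicate 1 against replicates 2 and 3 gave 16 called members by DESeq2 and 3 (1.41% of all genes) with replicate number as the only term, against 0 by limma with strain, and 0 under the other settings and without any single library. The cause was not tested. The median difference by replicate number stayed between -0.86 and -0.53 without any single library and between -0.77 and -0.49 under the other settings.

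GCN4 between strains was near 0, and it changed sign in the SSC1-labelled libraries, oe EGD2 and oe TCP1 but not in oe LHS1. In the SSC1-labelled libraries it was 0.084 by quantile normalization, and -0.38 to 0.016 without single libraries. In oe EGD2 it was 0.16 with the replicate block and 0.16 with replicates 1 and 2 alone, and -0.085 to 0.068 without single libraries. In oe TCP1 it was -0.080 by quantile normalization and -0.070 with replicates 1 and 2 alone, and -0.16 to 0.30 without single libraries. In oe LHS1 it was 0.0053 to 0.32 without single libraries and 0.070 to 0.19 under the other settings. The lowest adjusted p of GCN4 by replicate number was 0.303 over the alternatives.

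The replicate numbers were not taken to pair the libraries, since 8 of 15 same-numbered pairs had a correlation of deviations over 0.1 (range -0.58 to 0.64). However, 8 of 11 libraries correlated best with one of their own number. Between replicate 1 libraries the correlations were 0.36, 0.26, 0.53, 0.22 and 0.21, and -0.19 for oe LHS1 with oe EGD2. Chi-square per degree of freedom between counts was 64.2 to 273 among replicate 1 libraries. It was 336 to 643 between a replicate 1 library and the others of its strain. Whether replicate 1 marks a batch was not tested. With the replicate block the medians over the members were -0.43 in oe LHS1, -0.07 in the SSC1-labelled libraries, 0.18 in oe EGD2 and 0.13 in oe TCP1. The lowest value of any member in any library was 314 normalized counts, in HIS6.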
